A study of Mus musculus with 8 samples.

Results

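The genes described are 8 members of the antigen presentation and interferon response machinery, B2m, H2-D1, H2-K1, Psmb8, Ifitm2, Ifitm3, Irf1 and Ido1, out of 14883 gene lines measured. They were chosen by name after class differences had been seen in these same cells, so their differences between cell classes are given as a description, with no test. Cells came from mammary ducts and from terminal end buds, where ducts grow into the fat pad, both dissected from mice aged 5 weeks and of a strain labelled mixed, with no treatment or mutation named. Plate 2 and plate 1 each gave 4 libraries, and each library had 96 wells. The labels name neither the animals nor the tissue part behind a library.

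Of 768 wells, 114 held at least 1500 transcripts and 500 genes and were kept as cells. A cell was basal when Acta2, Tagln and Myl9 together exceeded Krt8, Krt18 and Krt19, and luminal in the reverse case. Luminal cells were hormone-sensing when the prolactin receptor gene Prlr exceeded Trf, which encodes transferrin, and secretory otherwise. This gave 14 hormone-sensing, 28 secretory and 66 basal cells, with 6 cells at equal sums left without a class. Only 1 of 108 classed cells had marker sums within 3 times of each other, and only 1 of 42 luminal cells had Prlr and Trf within 3 times or both at 0. Markers outside the rule went with the names. Pgr, the progesterone receptor gene, stood at 10.2 transcripts per 10000 in hormone-sensing, 0.20 in secretory and 0.39 in basal cells. The casein gene Csn3 stood at 1.01, 69.7 and 5.27 in the same order of classes, and Krt5 and Krt14 had no transcript in either luminal class.

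Class I molecules carry peptides from inside the cell to its surface, where cytotoxic T cells read them. A heavy chain, such as those encoded by H2-D1 and H2-K1, pairs with the light chain beta-2 microglobulin, encoded by B2m. Interferons raise both chains, and also Psmb8, a catalytic subunit of the immunoproteasome that cuts peptides for loading. Irf1 is a transcription factor in this response, Ifitm2 and Ifitm3 encode membrane proteins that restrict virus entry, and Ido1 encodes an enzyme that breaks down tryptophan. H2-K1, Psmb8 and H2-D1 lie in the major histocompatibility complex on chromosome 17, B2m on chromosome 2, Ifitm2 and Ifitm3 on chromosome 7, Irf1 on chromosome 11 and Ido1 on chromosome 8.

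Stretches of 30 bases upstream of 6 of these genes are shown because they hold the short elements known to bind interferon and NF-kB factors. The sequences are from RefSeq, build GRCm38.p6, 5′ to 3′ on the gene's own strand, and 7 of the 8 genes had an upstream window there. Upstream is counted from the gene start used there. The Ifitm2 and H2-K1 stretches lie inside wider annotated gene spans, from which the distance between Ifitm2 and Ifitm3 below is taken. Capitals mark matches to GAAANNGAA, a core of the interferon-stimulated response element, to TTCNNNGAA, a gamma-activated site, to GGGATTCCC, the core of the class I kB site, or to TTTCACTTC, the core of the class I interferon response sequence.
B2m, chr2:122147538-122147567, + strand: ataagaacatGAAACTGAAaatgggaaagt
H2-D1, chr17:35262924-35262953, + strand: GGGATTCCCcatctcctcagTTTCACTTCt
H2-K1, chr17:34000428-34000457, - strand: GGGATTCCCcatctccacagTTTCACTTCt
Psmb8, chr17:34198088-34198117, + strand: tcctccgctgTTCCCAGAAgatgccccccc
Ifitm2, chr7:140955988-140956017, - strand: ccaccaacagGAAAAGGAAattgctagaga
Irf1, chr11:53769914-53769943, + strand: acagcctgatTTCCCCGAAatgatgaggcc

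Both heavy chain genes had the same pair of elements at the same spacing. Their upstream windows shared 73.3% of 240 aligned bases, with an identical run of 47 bases across the kB site. All matches were searched on both strands of 300 bases around each gene start. The kB core was present in 0.37% and the class I interferon response core in 0.52% of 27025 such windows, the response element core in 8.57% and the gamma-activated site in 8.47%. Irf1 also had a kB match beginning 12 bases before its start, and Ifitm3 had its matches, at bases 3, 14 and 20 counted from 1 at its start. No match overlapped another of a different kind except those at 14 and 20 in Ifitm3. A match of letters is a description and shows no binding.

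Libraries and classes were strongly tied, which bears on every level below. Apart from 1 basal cell each in plate 2 library 1 and plate 1 library 3, basal cells came from the libraries numbered 2 and 4 and luminal cells from those numbered 1 and 3. Basal and luminal cells were therefore compared across libraries, and class and library cannot be told apart there. Hormone-sensing and secretory cells shared libraries. Library totals ranged from 101158 to 598625 transcripts, and the median cell held 17924 transcripts in the hormone-sensing, 7102.5 in the secretory and 13450.5 in the basal class. In 16 kept cells another cell type's marker list exceeded the epithelial one. They were 9 basal cells, 5 of them among the 8 basal cells of plate 1 library 2, 1 secretory cell and all 6 without a class.

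Levels are transcripts per 10000 of a library and class, summed over at least 3 cells, which gave 3 hormone-sensing, 4 secretory and 4 basal sums. For hormone-sensing sums, values run over library 3 of plate 1 and then over libraries 1 and 3 of plate 2. They run over libraries 1 and 3 of plate 1 and then of plate 2 for secretory sums, and over libraries 2 and 4 of plate 1 and then of plate 2 for basal sums. The labels do not say whether libraries are separate animals, so p-values reflect how library sums vary, and that variation may be technical. The share of all genes whose sums also did not overlap between classes is not given here. A lack of overlap below is therefore only a description.

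H2-D1, a classical class I heavy chain gene, showed the widest order over the 3 classes among the class I chains. It stood at 45.5, 36.2 and 22.5 in hormone-sensing, 12.5, 10.7, 21.0 and 5.52 in secretory and 8.57, 5.99, 3.83 and 3.58 in basal sums. All hormone-sensing sums lay above all secretory ones, while the lowest secretory sum, plate 2 library 3, lay below the basal sums of plate 1. The means were 34.7 ± 11.6, 12.4 ± 6.43 and 5.49 ± 2.32 (SD, n = 3, 4 and 4), 2.79 times higher in hormone-sensing than in secretory and 2.27 times higher in secretory than in basal cells. Without the cells led by another type the basal mean was 3.94 ± 0.79 and the secretory and basal sums no longer overlapped.

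The same order was seen for H2-D1 cell by cell. The median cell held 31.5 in the hormone-sensing, 8.21 in the secretory and 4.04 in the basal class. All 14 hormone-sensing cells and 23 of 28 secretory cells lay above the basal median, and 7 hormone-sensing cells lay above the highest secretory cell. H2-D1 transcripts were found in every hormone-sensing and secretory cell and in 60 of 66 basal cells. With each cell thinned to 1500 transcripts, the share was 92.9% of hormone-sensing, 71.4% of secretory and 40.9% of basal cells (exact 95% intervals 66.1 to 99.8, 51.3 to 86.8 and 29.0 to 53.7, counting error only).

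H2-K1, the other classical heavy chain gene, had the same order of means with sums that overlapped at both steps. Its levels were 19.8, 21.4 and 13.5 in hormone-sensing, 10.52, 4.64, 24.2 and 4.82 in secretory and 8.28, 1.83, 3.05 and 2.73 in basal sums. The secretory sum of plate 2 library 1, made of 3 cells at 36.7, 10.5 and 7.37, was the highest of all 11 sums. The basal sum of plate 1 library 2 lay above the secretory sums of both libraries numbered 3. The means were 18.3 ± 4.16, 11.1 ± 9.20 and 3.97 ± 2.92 (SD, n = 3, 4 and 4). By cell the medians were 20.9, 6.78 and 1.93, and 26 of 28 secretory cells lay above the basal median. Without the cells led by another type the basal mean was 2.43 ± 0.55, below every secretory sum.

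B2m, the common light chain, was high in hormone-sensing cells and did not follow the full order. Its levels were 18.9, 21.9 and 15.2 in hormone-sensing, 13.6, 1.86, 21.0 and 2.45 in secretory and 11.3, 8.50, 6.07 and 4.46 in basal sums. Hormone-sensing sums lay above all basal ones, by 2.46 times in the mean. Secretory sums spread from below the lowest basal to nearly the highest hormone-sensing sum, at a mean of 9.72 ± 9.25 against 7.58 ± 2.97 in basal sums (SD, n = 4 each). By cell the secretory class was lowest, with a median of 2.11 against 15.5 in hormone-sensing and 4.66 in basal cells, and only 7 of 28 secretory cells lay above the basal median. The higher secretory sums, 13.6 and 21.0, each held cells far above the rest. In plate 1 library 1 these stood at 30.6, in a cell led by another type's markers, and at 21.8. The rest of that library's secretory cells ran from 0.96 to 5.21. In plate 2 library 1 the secretory cells stood at 35.3, 7.01 and 0. Over libraries the mean therefore put secretory above basal, and over cells the median put it below.

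**Figure D1:**
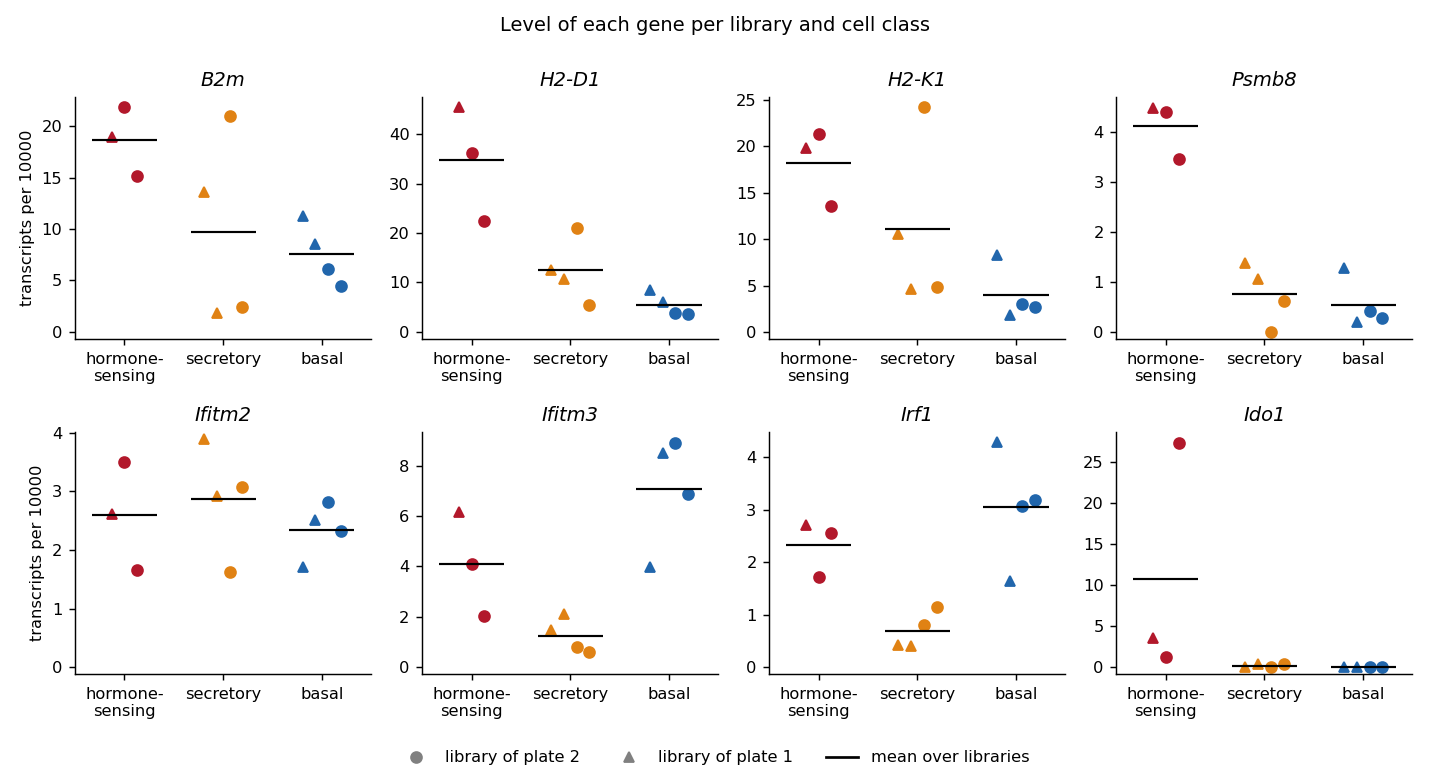
Level of each gene in transcripts per 10000 (vertical axis) for every library and class sum of at least 3 cells, with hormone-sensing, secretory and basal sums from left to right. Circles are plate 2, triangles plate 1 and lines the mean over libraries. H2-D1, Psmb8 and Ido1 have hormone-sensing sums above all others, Ifitm3 is highest in basal sums at a mean of 7.07, and Ido1 is at 0 in all 4 basal sums.

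The difference between the chains showed as a ratio of light to heavy chain transcripts. For each H2-D1 or H2-K1 transcript there were 0.29, 0.38 and 0.42 B2m transcripts in hormone-sensing, 0.59, 0.12, 0.46 and 0.24 in secretory and 0.67, 1.09, 0.88 and 0.71 in basal sums. Every luminal ratio lay below every basal one, while hormone-sensing and secretory ratios overlapped. This separation ended when the cells led by another type were left out. The secretory ratio of plate 1 library 1 was then 0.58, above the basal ratio of 0.52 in plate 1 library 2, which rested on 3 cells and 11 B2m transcripts. The other 3 basal ratios were 1.10, 0.88 and 0.71 without those cells. The counts are tags of transcript ends on the transcript scale, and the ratio is compared here between classes and not read as an amount of protein.

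**Figure D2:**
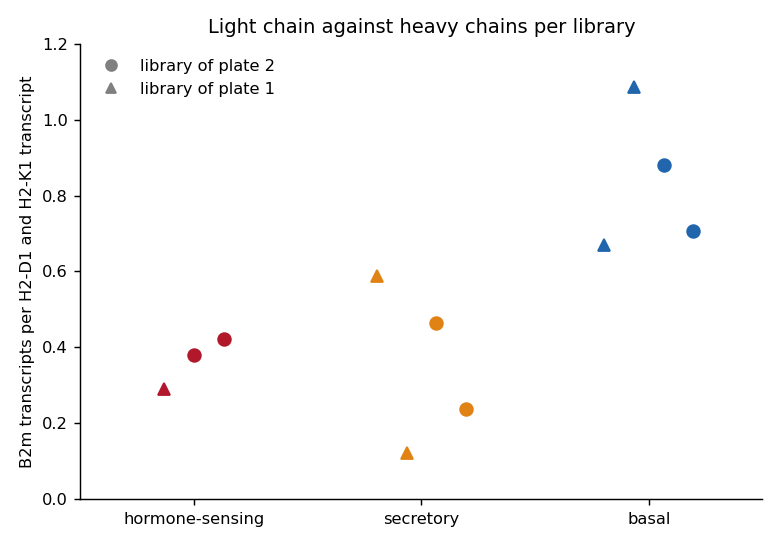
Ratio of B2m transcripts to the sum of H2-D1 and H2-K1 transcripts (vertical axis) for each library sum of the hormone-sensing, secretory and basal classes. Circles are plate 2 and triangles plate 1. Luminal sums run from 0.12 to 0.59 and basal sums from 0.67 to 1.09 with all cells of a class included.

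Within the libraries that held both luminal classes, the class I chains were mostly higher in hormone-sensing cells. H2-D1 was 4.24, 1.72 and 4.07 times higher in library 3 of plate 1 and in libraries 1 and 3 of plate 2, and B2m 10.2, 1.04 and 6.19 times. H2-K1 was 4.28 and 2.81 times higher in the library numbered 3 of plate 1 and of plate 2, and in plate 2 library 1 its ratio was 0.88. Plate 1 library 1 held a single hormone-sensing cell, with 63.7 for H2-D1, 50.3 for B2m and 35.2 for H2-K1, all above the 7 secretory cells of that library pooled. In plate 2 library 1 the 3 chains summed to 79.4 in 7 hormone-sensing and 66.2 in 3 secretory cells. The step was thus small there, and 1 secretory cell lay far above the others. That cell stood at 35.3 for B2m, 32.3 for H2-D1 and 36.7 for H2-K1. The others stood at 7.01, 10.5 and 10.5 and at 0, 3.68 and 7.37 in the same order. The secretory cells of this library had a median of 2855 transcripts against 15538 in its hormone-sensing cells. The part of depth in the small step was not tested.

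**Figure D3:**
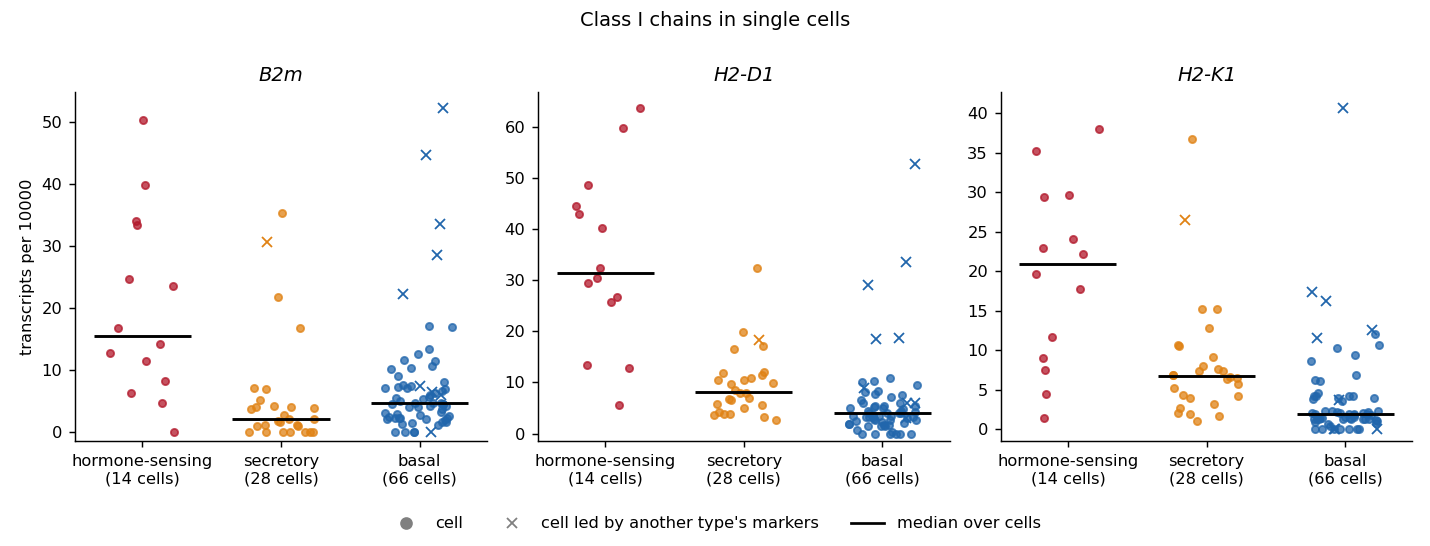
Transcripts per 10000 of B2m, H2-D1 and H2-K1 (vertical axes) in each of 14 hormone-sensing, 28 secretory and 66 basal cells, with lines at the class medians. Crosses are cells led by another type's markers. Such cells make up most of the basal cells with the highest values, and the secretory median of B2m, 2.11, lies below the basal median of 4.66.

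The 3 chains varied together from cell to cell most closely in the hormone-sensing class. Spearman's rho among 14 hormone-sensing cells was 0.81 for B2m with H2-D1, 0.85 for B2m with H2-K1 and 0.81 for H2-D1 with H2-K1. It was 0.62, 0.55 and 0.44 among 28 secretory cells and 0.23, 0.39 and 0.30 among 66 basal cells. These are descriptions over cells that share libraries and differ in depth. The classes also differ in the transcripts behind each rho. The median cell held 75.3 for the 3 chains in the hormone-sensing, 17.3 in the secretory and 10.8 in the basal class. The part of low counts in the lower rho was not tested. The summed chains had a rho of 0.19 with the transcripts per cell in hormone-sensing, -0.27 in secretory and -0.07 in basal cells. The hormone-sensing cells themselves spanned 15.1 to 149 for the 3 chains together.

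Cells led by another type's markers carried high class I levels. The 7 cells led by endothelial markers stood at 31.9 for B2m, 25.6 for H2-D1 and 14.6 for H2-K1, as 1 pool. The endothelial list of 9 genes ranged from 0.085 to 42.3 in basal sums, from 0 to 0.81 in secretory sums and from 0 to 0.28 in hormone-sensing sums. Pecam1, Cdh5 and Kdr were at 0 in hormone-sensing cells. In basal cells Fabp4, also a fat cell gene, held 268 transcripts of this list, and its other genes from 6 for Cldn5 to 31 for Kdr. How far the endothelial label rests on Fabp4 was not tested. With the cells led by another type left out, B2m averaged 5.25 ± 2.12 in basal sums (SD, n = 4), so the luminal and basal levels lay further apart for all 3 chains.

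Psmb8, the immunoproteasome subunit, was set apart in hormone-sensing cells with no clear step between the other classes. It stood at 4.47, 4.39 and 3.45 in hormone-sensing, 1.37, 1.06, 0 and 0.61 in secretory and 1.28, 0.19, 0.43 and 0.28 in basal sums. The hormone-sensing sums did not overlap with either other class, and secretory and basal sums overlapped. The mean was 4.10 ± 0.57 in hormone-sensing, 0.76 ± 0.59 in secretory and 0.55 ± 0.50 in basal sums (SD, n = 3, 4 and 4). Without the cells led by another type the basal mean was 0.23 ± 0.18, with 0 in plate 1 library 2. The secretory mean was then 3.17 times the basal one, and their sums still overlapped. Psmb8 was found in 13 of 14 hormone-sensing, 13 of 28 secretory and 23 of 66 basal cells. The thinned shares were 35.7%, 17.9% and 4.55%, with overlapping intervals for the first pair (exact 95% intervals 12.8 to 64.9 and 6.06 to 36.9).

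Ifitm2 was flat over the classes. Its levels were 2.61, 3.49 and 1.66 in hormone-sensing, 3.89, 2.92, 1.62 and 3.07 in secretory and 1.71, 2.51, 2.81 and 2.33 in basal sums. All classes overlapped, with means of 2.59 ± 0.92, 2.87 ± 0.94 and 2.34 ± 0.46 (SD, n = 3, 4 and 4). Of the 50-base words in the last 500 bases of its transcripts, 41.9% also occur in other genes, against 13.97% for Ifitm3, 9.53% for H2-D1, 0.44% for H2-K1 and none for the other 4 genes. How the authors' counting treated reads from such stretches is not given in the sources used here, so the Ifitm2 level is the least certain.

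Ifitm3, its neighbour 49.9 kb away on chromosome 7, was highest in basal cells, unlike the class I chains, and its mean was higher in hormone-sensing than in secretory sums. It stood at 6.15, 4.11 and 2.04 in hormone-sensing, 1.47, 2.12, 0.81 and 0.61 in secretory and 4.00, 8.50, 8.91 and 6.88 in basal sums. Every basal sum lay above every secretory sum, while the hormone-sensing sums overlapped with both. In the 3 libraries with sums of both classes it was 2.90, 5.09 and 3.33 times higher in hormone-sensing cells, and the single hormone-sensing cell of plate 1 library 1 had no Ifitm3 transcript. The basal mean was 7.07 ± 2.23 against 1.25 ± 0.69 in secretory sums (SD, n = 4 each). By cell the medians were 2.98 in hormone-sensing, 0.56 in secretory and 6.21 in basal cells, and only 2 of 28 secretory cells lay above the basal median.

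Irf1, the transcription factor, was lowest in secretory cells. It stood at 2.70, 1.71 and 2.55 in hormone-sensing, 0.42, 0.40, 0.81 and 1.14 in secretory and 4.28, 1.64, 3.07 and 3.18 in basal sums. The secretory sums lay below all others, and the hormone-sensing and basal sums overlapped. Without the cells led by another type the basal mean was 2.03 ± 1.38, against 3.04 ± 1.08 with them (SD, n = 4 each), and the secretory and basal sums overlapped. Transcripts of Irf1 were found in 11 of 14 hormone-sensing, 12 of 28 secretory and 50 of 66 basal cells.

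Ido1 was found mainly in hormone-sensing cells, and most of it came from 1 cell. It stood at 3.63, 1.30 and 27.3 in hormone-sensing and at 0, 0.40, 0 and 0.44 in secretory sums, and had no transcript in any of 66 basal cells. By counting error alone this allows up to 5.44% of such cells to yield an Ido1 transcript (exact 95% interval), and it sets no limit on cells that express the gene. The single hormone-sensing cell of plate 1 library 1 stood at 20.1. One cell of plate 2 library 3 held 212 of the 284 Ido1 transcripts in the class, at 46.5 per 10000. Ido1 was found in 8 of 14 hormone-sensing and 6 of 28 secretory cells, 5 of these 6 with a single transcript. The cell with 212 transcripts was among the lowest of its class for the summed class I chains, at 24.8. Ido1 had a rho of 0.12 with B2m, 0.19 with H2-D1 and 0.10 with H2-K1 over the 14 cells.

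**Figure D4:**
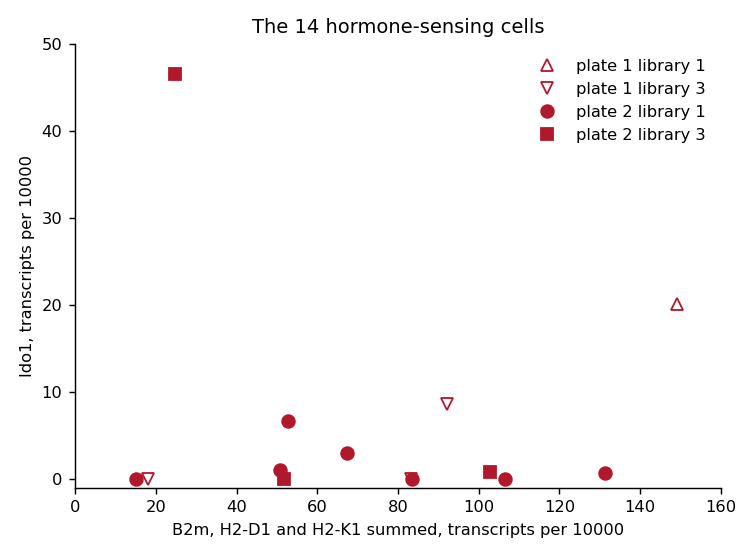
Ido1 level (vertical axis) against the summed level of B2m, H2-D1 and H2-K1 (horizontal axis), both in transcripts per 10000, for each of the 14 hormone-sensing cells. Symbols mark the library. One cell of plate 2 library 3 has 46.5 for Ido1 and 24.8 for the class I chains, and 6 cells have no Ido1 transcript.

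Fits over all genes, with edgeR's quasi-likelihood test and Benjamini-Hochberg adjustment at 0.05, gave the background for these differences. The class contrasts helped to choose the genes, so their counts are given without being read. Between hormone-sensing and secretory sums of the 3 shared libraries, 12.1% of 2458 genes passed, and of the 8 genes B2m, H2-D1, Psmb8 and Ido1 did so, all higher. The log2 changes were 1.90 ± 0.48 for B2m, 1.54 ± 0.39 for H2-D1, 2.29 ± 0.67 for Psmb8 and 4.63 ± 0.81 for Ido1 (SE). Those of H2-K1, Ifitm3 and Irf1 were 1.04 ± 0.44, 1.52 ± 0.63 and 1.49 ± 0.68, and that of Ifitm2 was -0.32 ± 0.59.

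Between secretory and basal sums 16.3% of 1851 genes passed, and 6 of the 8 genes passed the filter on low counts, Psmb8 and Ido1 being left out by it. Ifitm3 and Irf1 passed as lower, at log2 changes of -2.36 ± 0.44 and -2.07 ± 0.46 (SE). The changes of H2-D1, H2-K1 and B2m were 1.12 ± 0.39, 1.31 ± 0.53 and 0.16 ± 0.57. Between all luminal and basal sums 14.8% of 3420 genes passed, with H2-D1, H2-K1, Psmb8 and Ido1 higher and Ifitm3 lower among the 8. The luminal over basal change of H2-D1 was 2.63 on plate 2 and 1.72 on plate 1 fitted alone, that of H2-K1 2.33 and 1.39 and that of B2m 1.43 and 0.51. Libraries 1 and 3 held 7 and 3 hormone-sensing cells on plate 2 and 1 and 3 on plate 1. Most basal cells led by another type's markers were on plate 1. The part of either in these plate values was not tested. On cells thinned to 1500 transcripts each, B2m turned to -0.34 for luminal over basal and to -1.30 for secretory over basal, and H2-D1 was at 1.15 for luminal over basal. In a fit added after the data were seen, none of the 8 genes passed a test that this contrast differed between plates, and 0.0% of 5031 genes did, with 221 at an unadjusted p under 0.05 in edgeR.

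The plates were the only groups in the labels, and the genes had not been chosen on them. The fit over 11 sums had class but no library term. Libraries that gave both a hormone-sensing and a secretory sum entered with each as if independent, so its p-values may be too small. In it 0.249% of 3610 genes passed, 9 genes that were all lower on plate 2, among them the endothelial and fat cell gene Fabp4. None of the 8 genes passed. H2-D1 had a log2 change of -0.64 ± 0.27 (SE, edgeR unadjusted p = 0.030, adjusted p = 0.84, and 0.21 to 1.00 over the alternatives), B2m -0.37 ± 0.42 and H2-K1 -0.19 ± 0.38 (adjusted p = 0.999 for each). The other 5 genes had changes from -0.69 for Psmb8 to 1.71 for Ido1, with adjusted p from 0.94 to 0.999. A change that missed the threshold does not show that the plates had equal levels.

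Wells of 500 to under 1500 transcripts had not served to choose the genes and gave a second look at shallow depth. Classed by the same markers, 24 were luminal and 30 basal, of which 4 and 11 were led by another type's markers. Pooled over libraries, H2-D1 stood at 21.2 in luminal and 12.9 in basal wells (exact 95% Poisson intervals 15.5 to 28.2 and 8.84 to 18.2), and H2-K1 at 17.0 and 4.04 (12.0 to 23.5 and 1.94 to 7.43). B2m stood at 13.3 and 7.27 (8.93 to 19.2 and 4.31 to 11.5). In the test over library sums only H2-D1 among the 8 genes passed the filter on low counts, with a log2 change of 0.29 ± 0.86 (SE, edgeR adjusted p = 0.90). In that test 9.68% of 62 genes passed, 3.23% as higher and 6.45% as lower. The step seen for H2-D1 in cells was thus not detectable over libraries at this depth.

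Among the 24 shallow luminal wells 9 were hormone-sensing, 5 had more Trf than Prlr and 10 had equal counts of both. At the minimum of 2 wells a sum, 1 library gave a hormone-sensing sum, so these classes were not tested. With equal counts taken as secretory, as in kept cells, B2m stood at 22.9 in hormone-sensing and 7.92 in secretory wells (intervals 13.6 to 36.2 and 3.96 to 14.2). H2-D1 stood at 29.3 and 16.6 (18.6 to 43.9 and 10.5 to 24.9), and H2-K1 at 26.7 and 11.5 (16.5 to 40.9 and 6.59 to 18.7). The intervals of all 3 genes overlapped between the classes. H2-D1 was at 4.54 in the 5 wells with more Trf (0.55 to 16.4) and at 22.2 in the 10 wells with equal counts (13.7 to 33.9). Psmb8, Ifitm3 and Ifitm2 lay the other way from the means of kept cells, with wide intervals. Ifitm2, flat in kept cells, stood at 5.09 in hormone-sensing and 0.72 in secretory wells (1.39 to 13.0 and 0.018 to 4.01). Psmb8 stood at 1.27 in hormone-sensing and 4.32 in secretory wells (0.032 to 7.09 and 1.59 to 9.41), and Ifitm3 at 2.55 and 5.76 (0.31 to 9.20 and 2.49 to 11.4).

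In the 579 wells under 500 transcripts, B2m stood at 7.69, H2-D1 at 12.3 and H2-K1 at 9.85. The summed chains in such wells were 62.2 in plate 1 library 3 and 42.9 in plate 2 library 1, and 12.2 to 37.8 in the other 6 libraries. The part of RNA free in the wells in the levels of kept cells was not tested.

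Other genes of the pathway were taken from lists of 90 genes, of which 82 were in the table. They too were drawn up with results of these data known. Of 25 tested between hormone-sensing and secretory sums, 9 were higher and 0 lower, beside 5.17% of all genes higher and 6.92% lower. Their median log2 change was 0.95, against 0.11 over all tested genes. The filter on low counts could be passed through the higher class alone, here and in the other class contrasts. AW112010 had 122 transcripts in hormone-sensing and 2 in secretory cells, and Psmb9 56 and 4. Such genes could hardly pass as lower, so the count is a description. With no filter 3 of 74 were higher, beside 0.76% of all genes. With DESeq2 it was 5 of 25, and with no replicate block 6 of 18, with 1 lower. The count also rests on few libraries. It was 0 of 21 without plate 2 library 1, where only 2 of 1989 genes passed as higher. Without library 3 of plate 1 or of plate 2 it was 3 of 20, beside 2.6% and 3.46% of all genes higher. It was 0 of 21 when wells of at least 3000 transcripts were required, beside 0.94% of 2023 genes higher. That minimum also left plate 2 library 1 out, since its 3 secretory cells had a median of 2855 transcripts.

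The immunoproteasome list supplied 2 of the 9. Psmb9, another catalytic subunit, averaged 1.58 ± 0.36 in hormone-sensing and 0.10 ± 0.07 in secretory sums (SD, n = 3 and 4), at a log2 change of 3.00 ± 1.03 (SE, edgeR adjusted p = 0.031). Psme2, a subunit of the proteasome activator, averaged 3.85 ± 1.35 and 0.71 ± 0.47 (adjusted p = 0.020), while its partner Psme1 averaged 3.73 ± 1.03 and 1.67 ± 0.36 and did not pass (adjusted p = 0.24). Tap2, a subunit of the peptide transporter into the endoplasmic reticulum, was the 1 gene of 6 tested for peptide loading that passed. It averaged 2.39 ± 0.67 and 0.36 ± 0.42, with a log2 change of 2.98 ± 0.84 (SE, adjusted p = 0.0047). The chaperones Calr and Canx had changes of 0.80 and 0.01 (adjusted p = 0.41 and 0.99).

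Interferon-induced effectors supplied 5 of the 9. Ly6a, the surface protein Sca-1, averaged 5.30 ± 5.29 in hormone-sensing and 0.24 ± 0.17 in secretory sums, with a log2 change of 4.08 ± 0.88 (SE, edgeR adjusted p = 7.5e-05). AW112010, an interferon-induced transcript, averaged 3.46 ± 0.65 and 0.04 ± 0.09 and had no transcript in basal cells (adjusted p = 7.6e-06). The guanosine triphosphatase gene Irgm1 and Rtp4 passed at log2 changes of 3.31 and 3.25 (adjusted p = 0.034 and 0.015). Ly6e and Xaf1, the others with most transcripts, had changes of 0.29 and -0.50 (adjusted p = 0.76 for each).

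Among signalling genes Socs3, a feedback inhibitor of cytokine signalling, passed with a log2 change of 2.20 ± 0.71 (SE, edgeR adjusted p = 0.020). It was the 1 gene of the lists that was lower in secretory than in basal sums, at -3.13 ± 0.47 (adjusted p = 0.00012), so that it shared the low secretory level of Irf1 and Ifitm3. Jak1, Stat3 and the interferon regulatory factor binding gene Irf2bp2 did not pass in either contrast. H2-T23, a non-classical class I heavy chain gene, was the only 1 of its list with enough counts. It averaged 3.40 ± 1.24 in hormone-sensing, 3.31 ± 1.55 in secretory and 3.66 ± 1.34 in basal sums, and its log2 changes were 0.12 and -0.06 (adjusted p = 0.96 and 0.94). No gene of MHC class II or of tryptophan catabolism had enough counts to be tested.

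**Figure D5:**
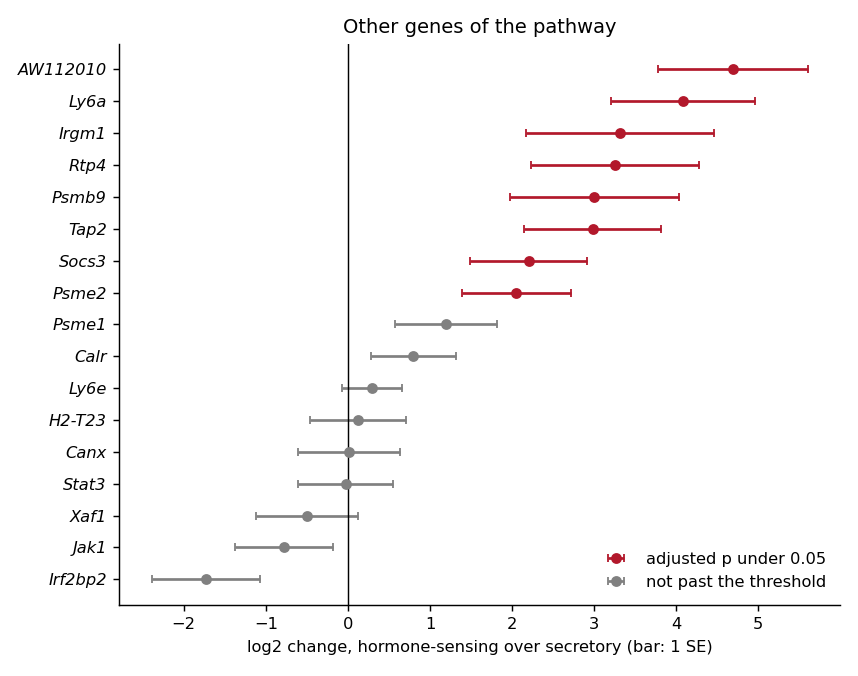
Log2 change between hormone-sensing and secretory sums (horizontal axis, bars of 1 SE) for the named genes of the pathway lists, sorted by size. Red marks genes with an edgeR adjusted p under 0.05. The changes run from -1.73 for Irf2bp2 to 4.69 for AW112010.

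Between secretory and basal sums 2 of 14 pathway genes were higher, Psme1 at a log2 change of 1.48 ± 0.39 and Ly6e at 1.72 ± 0.30 (SE, edgeR adjusted p = 0.014 and 0.00046), and 1 was lower. Of all genes 7.08% were higher and 9.24% lower. Ly6e, a membrane-anchored relative of Ly6a, averaged 31.2 ± 6.77 in hormone-sensing, 22.9 ± 7.60 in secretory and 7.33 ± 0.57 in basal sums (SD, n = 3, 4 and 4). Between luminal and basal sums 5 of 24 were higher and 0 lower, beside 6.7% and 8.07% of all genes. They were Tap2, Psme1, Psme2, Rtp4 and Ly6e, with log2 changes from 1.44 for Psme2 to 4.73 for Tap2. Without plate 1 library 2, or without the cells led by another type, this count was 14 of 35 higher and 1 lower, beside 9.88% and 9.98% of all genes higher. None of 30 pathway genes passed between plates.

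Genes outside the 8 with the most similar levels were ranked by Pearson's r over the 11 library and class sums among 1829 genes, as a description. For the 3 class I chains together these were Chmp2a (r = 0.92), Lasp1 and Tgm2 (0.90 each), D8Ertd82e (0.88) and Mboat1 (0.87). Tgm2, which encodes a transglutaminase, averaged 11.9 ± 3.85 in hormone-sensing, 2.62 ± 3.14 in secretory and 0.84 ± 0.81 in basal sums. Closest to Psmb8 were Cox17 (0.95), Ndufa13 and Gabarap, to Ifitm2 Prrc2b (0.86), Rin2 and Snx5 and to Ifitm3 Msrb3 (0.93), the pathway gene Socs3 and Got2. Closest to Irf1 were Ddx3x (0.93), Strap and Psme4, and to Ido1 Crym (0.96), Stc2 and Tspan1. Among the genes themselves r was 0.90 for H2-D1 with H2-K1, 0.70 for B2m with H2-D1 and 0.73 for B2m with H2-K1, 0.63 for Ifitm3 with Irf1 and -0.19 for H2-D1 with Ifitm3.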

How the data were processed

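Per the labels' protocols, live sorted cells went through SORT-seq, a robotic CEL-seq2 in which wells and transcript molecules carry tags, and a NextSeq500 read 75 bp at both ends. The submitters' processing notes list BWA 0.6.2-r126 and mm10. The deposited values are expected counts, the authors' estimate of how many molecules of each gene a well held. They follow a correction for a pool of 4-base tags, which leaves the highest counts poorly determined. Further filters, and any use of strand in counting, were not given in the sources used here.

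Counts were rounded to whole numbers, which moved well totals by -0.21% to 0.87%, and spike-ins were left out. Cells were classed by marker sums, and doublets were not called or removed. Wells are named by number, so barcodes shared by libraries could not be counted. Transcripts were summed per library and class, over at least 3 cells (5 for luminal over basal), and tested by quasi-likelihood in edgeR 4.0.16 under R 4.3.3, after TMM scaling and filterByExpr. A gene passed at a Benjamini-Hochberg adjusted p below 0.05. The library was a block for hormone-sensing over secretory and in no other main fit. DESeq2 1.42.0 was an alternative. An approximate SE was had by dividing each log2 change by the square root of F. The fit was tested on simulated data. The 8 genes and all lists were chosen with earlier results of these data known. Named pathway genes are, per list and contrast, up to 4 past the threshold by largest change and 2 others with most transcripts. Similar genes are ranked by r of log2(CPM + 10) among genes of at least 100 CPM, without ribosomal protein and class marker genes. A count of 0 was read as allowing 3 counts.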

Additional observations from a re-analysis of the deposited data

Results flagged for a closer look

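Among sums of 1 gene and class, 2 of 23 groups of 4 libraries held a library far from the other 3. Both were luminal groups. Irf1 stood at 0.59 transcripts per 10000 in plate 1 library 1, whose luminal cells were 1 hormone-sensing and 7 secretory. The secretory cells there stood at 0.42, within the 0.40 to 1.14 of secretory sums, and the hormone-sensing cell at 3.35. The part of the class mix was not tested. Ido1 stood at 11.4 in plate 2 library 3, where 1 cell held most of its transcripts. Chance alone sets about 1 in 20 such groups apart.

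The 6 cells with equal marker sums entered no comparison, and all of them were led by another type's markers. As 1 pool they stood at 18.6 for B2m, 16.2 for H2-D1, 13.1 for H2-K1, 2.77 for Psmb8, 1.58 for Ifitm2, 7.91 for Ifitm3 and 17.0 for Irf1, all in transcripts per 10000 and above the limit that a count of 0 allows. They held no Ido1 transcript. Of the 6, 2 were led by macrophage or dendritic markers and 1 each by endothelial, fibroblast, nerve and red blood cell markers.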

How the results depend on the processing

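The number of genes past the threshold between hormone-sensing and secretory sums was 297. It was 42 with wells of at least 3000 transcripts, a minimum that also left out plate 2 library 1. It was 28 with cells thinned to 1500 transcripts and 11 to 140 with a library left out, 11 being without plate 2 library 1. With no replicate block it was 231, and 186 with no replicate block and at least 5 cells a sum, chosen after seeing the data. Between secretory and basal sums it was 302, against 1090 with no filter on low counts, 457 with the higher minimum, 17 thinned and 252 to 519 with a library left out. Between luminal and basal sums it was 505, against 1511 with no filter, 838 without cells led by another type, 21 thinned, 436 to 848 with a library left out, 939 on plate 2 alone and 163 on plate 1 alone. Fewer genes were tested after thinning, between 154 and 207.

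Between plates it was 9, against 5 with DESeq2 size factors, 4 with DESeq2, 111 with no filter, 2 without cells led by another type, 5 with the higher minimum, 3 in luminal and 0 in basal sums alone and 2 to 19 with a library left out. With the library number as replicate block it was 18. Deviations of same-numbered libraries correlated at 0.011 in secretory and -0.038 in basal sums. Within a plate and class the deviations mirrored each other, so these values cannot decide whether the numbers pair the libraries. In shallow wells it was 6, against 12 with no filter and 3 to 7 with a library left out. Wells led by another type were left out there in an alternative chosen after seeing the data, which gave 4.

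None of the 8 genes passed between plates under any alternative run. The following changed sign there, all far from the threshold. Ido1 was at -0.11 with DESeq2 and -1.43 to 4.22 with a library left out, the lowest without plate 2 library 3. Ifitm2 was at 0.043 with no filter, 0.048 with the higher minimum, -0.16 to 0.071 with a library left out and 0.28 in basal sums. H2-K1 was at 0.32 without cells led by another type, -0.68 to 0.23 with a library left out and 0.20 in luminal sums. Irf1 was at -0.080 to 0.50 with a library left out, Ifitm3 at 0.34 in basal and B2m at 0.041 in luminal sums. In shallow wells H2-D1 was at -0.28 to 0.76 with a library left out. B2m changed sign on thinned cells, at -1.30 for secretory over basal and -0.34 for luminal over basal. The causes were not tested. Depth limits the shares of cells with a transcript, and sums of 3 cells limit the hormone-sensing class most.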
